A study of Bos taurus with 20 samples.

Results

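CD40 is a receptor of the TNF receptor family that sits on B cells, dendritic cells, macrophages and other cells, and 2 of the 24128 probe sets of the bovine array, Bt.13130.1.S1_at and Bt.12112.1.S1_at, carry its symbol. The gene was chosen by the difference between challenged glands without treatment and unchallenged glands, which for Bt.13130.1.S1_at was large at 24 h and smaller at 48 h, and by the disagreement of Bt.12112.1.S1_at with it. The values of these glands and the disagreement are therefore described below without a test.

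The receptor is engaged by CD40 ligand, mostly on activated helper T cells. Its tail has no enzyme activity and binds adaptors of the TRAF family, which pass the signal to the kinases that release NF-kB. In antigen-presenting cells this is known to raise costimulatory and class II molecules, cytokines and proteins that protect from cell death. In infected tissue its transcript can come from arriving leukocytes as well as from resident cells.

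Mammary tissue of 20 glands from 5 mid-lactation Holstein Friesian cows was measured, 1 array per gland. Every cow gave 1 gland that was not challenged (NC), 1 that received 100 cfu of E. coli and no drug (CNT), 1 that was treated after challenge with the cephalosporin cefapirin at 300 mg per infusion (CF), and 1 whose infusions held the same 300 mg along with 20 mg of the glucocorticoid prednisolone (CFPD). Cows 4 and 5 were sampled at 24 h post challenge, after infusions at 4 and 12 h, and cows 1, 2 and 3 at 48 h, after further infusions at 24 and 36 h. All 4 glands of a cow share 1 animal, so an NC gland came from an animal with mastitis in other glands. NC was always the right front and CNT always the left front gland, and CF and CFPD glands always lay at the rear. Position therefore cannot be told apart from group in CNT against NC glands, nor in treated against NC or CNT glands. CF was the left rear gland in cows 1, 3 and 4 and the right rear gland in cows 2 and 5, and CFPD was the other rear gland. The labels name the cisternal region as the source of the tissue and the methods name the mid parenchyma.

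The values are log2 signals, on which a difference of 1 is a doubling. Array medians lay between 7.13 and 7.31. All 13 mammary epithelial markers on the array were above the array median on some arrays. Their mean lay between 12.34 and 13.05 in every gland, so each sample held mammary epithelium. Whether the tissue came from the cisternal region or the mid parenchyma was not tested. The difference between 3′ and 5′ probe sets of the actin control, a measure of RNA quality, was 2.14 to 2.32 in CNT and 1.45 to 1.54 in NC glands at 24 h, and 1.56 to 2.29 against 1.27 to 1.49 at 48 h. The same difference for the GAPDH control ran the other way at 24 h, with 0.904 to 1.13 in CNT and 1.23 to 1.79 in NC glands, and overlapped at 48 h, with 0.770 to 1.20 against 1.03 to 1.29. The part of RNA quality in the differences between these groups was not tested. Which of the treated glands of cows 2 and 5 is CF and which CFPD is uncertain, because fold changes that accompany the study follow the arrays more closely with these labels exchanged. Results for treated glands are given as labelled and, where it matters, with the exchange. With the exchange CF would be the left rear and CFPD the right rear gland in every cow, so that drug and side could not be told apart.

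Bt.13130.1.S1_at was low in every gland except the challenged, untreated ones. At 24 h its log2 level was 5.96 and 5.81 in the NC glands of cows 4 and 5, and 8.83 and 8.67 in their CNT glands. It was 5.86 and 5.70 in the CF glands and 5.97 and 6.00 in the CFPD glands. The CNT glands stood apart from the other glands, which all lay between 5.70 and 6.00.

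The difference between the CNT and NC glands of a cow was 2.87 on the log2 scale in cow 4 and 2.87 in cow 5, with a mean of 2.87 ± 0.0034 (SD, n = 2). This is a 7.30-fold higher signal, with a standard error of 0.15 for the log2 fold change in limma, a linear model with moderated variances. Of all probe sets tested in CNT against NC at 24 h, 1.62% were called higher and 0.769% lower, where a call takes both a change of at least 1 on the log2 scale and an adjusted p below 0.05. Nothing is read from this share for CD40, since the same comparison chose the gene.

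At 48 h the same probe set was 6.46, 6.57 and 5.90 in the NC glands of cows 1, 2 and 3, and 7.49, 7.66 and 7.04 in their CNT glands. The CF glands had 5.82, 6.15 and 6.02, and the CFPD glands 6.19, 6.29 and 6.17. Again all CNT glands lay above all other glands, but the gap was narrower than at 24 h.

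Within cows, the CNT gland exceeded the NC gland by 1.03, 1.09 and 1.14, a mean of 1.09 ± 0.053 (SD, n = 3) or 2.13-fold, with a standard error of 0.21 in limma. The NC glands of cows 1 and 2 were higher than that of cow 3 and so were their CNT glands, so that the differences within cows varied less than the levels. The glands of the 2 time points came from different cows, and the larger value at 24 h is a description of these animals.

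**Figure D1:**
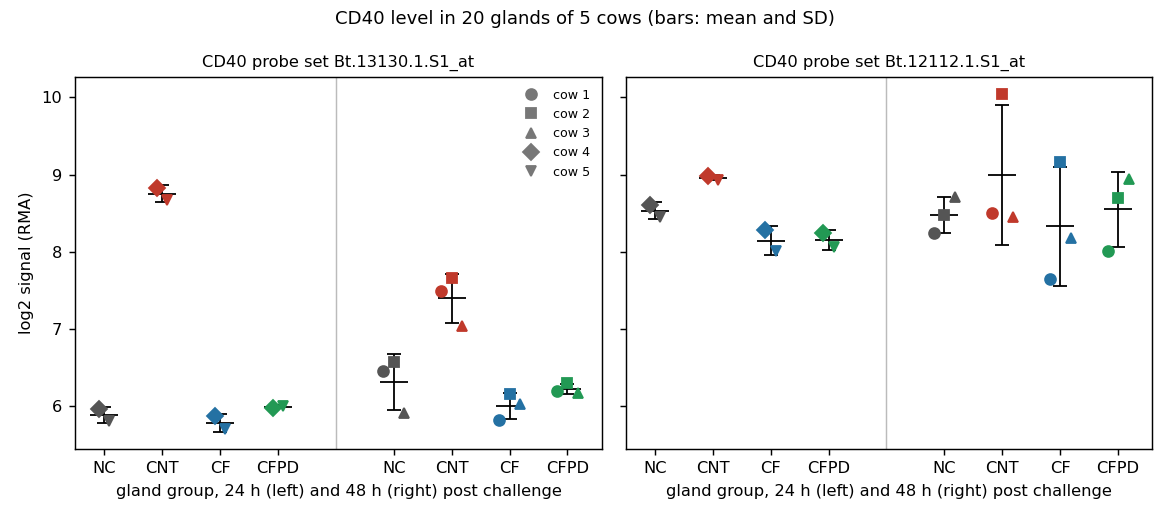
Log2 signal of the CD40 probe sets (vertical axis) in NC, CNT, CF and CFPD glands at 24 h (left of the grey line, 2 cows) and 48 h (right, 3 cows); each symbol is 1 cow, and bars are the mean and SD. For Bt.13130.1.S1_at the CNT glands lie above every other gland of their time point, while for Bt.12112.1.S1_at the CNT gland of cow 2 at 10.04 stands alone.

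The low level of Bt.13130.1.S1_at outside the CNT glands bears on how it could be tested. It was above the array median in 2 of 8 glands at 24 h and in 2 of 12 at 48 h, all of them CNT glands, and in the CNT gland of cow 3 it was 0.27 below. It therefore passed the filter at 24 h through the CNT glands alone and did not pass at 48 h, where its values come from a fit without the filter. In NC, CF and CFPD glands it lay between 0.62 and 1.45 below the array median, where signals of an array are least able to show a further fall.

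Bt.12112.1.S1_at was above the array median in all 20 glands. At 24 h its log2 level was 8.61 and 8.45 in the NC glands of cows 4 and 5 and 8.98 and 8.94 in the CNT glands. The CF glands had 8.28 and 8.01, and the CFPD glands 8.24 and 8.06. The CNT glands were the highest here too, though the difference between CNT and NC glands was only 0.38 in cow 4 and 0.49 in cow 5. The log2 fold change of 0.43 had a standard error of 0.17.

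At 48 h the levels of Bt.12112.1.S1_at were 8.24, 8.47 and 8.71 in the NC glands of cows 1, 2 and 3 and 8.50, 10.04 and 8.44 in the CNT glands. In the CF glands they were 7.64, 9.17 and 8.18, and in the CFPD glands 8.01, 8.70 and 8.95. The groups overlapped, and the CNT gland of cow 2 was the highest of all 20. CNT exceeded NC by 0.25 in cow 1 and by 1.57 in cow 2, whereas in cow 3 the difference was -0.26. The log2 fold change of 0.52, with a standard error of 0.46, became -0.0037 without cow 2. The actin difference between 3′ and 5′ probe sets was also highest among the 48 h glands in the CNT gland of cow 2, at 2.29, whereas the GAPDH difference of this gland, 0.770, was the lowest of all 20, and their part was not tested.

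Cow by cow, the difference of Bt.13130.1.S1_at between CNT and NC glands was larger than that of Bt.12112.1.S1_at by 2.49 and 2.38 in cows 4 and 5, and by 0.78 and 1.40 in cows 1 and 3. In cow 2 it was smaller, the difference between the probe sets being -0.48.

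**Figure D2:**
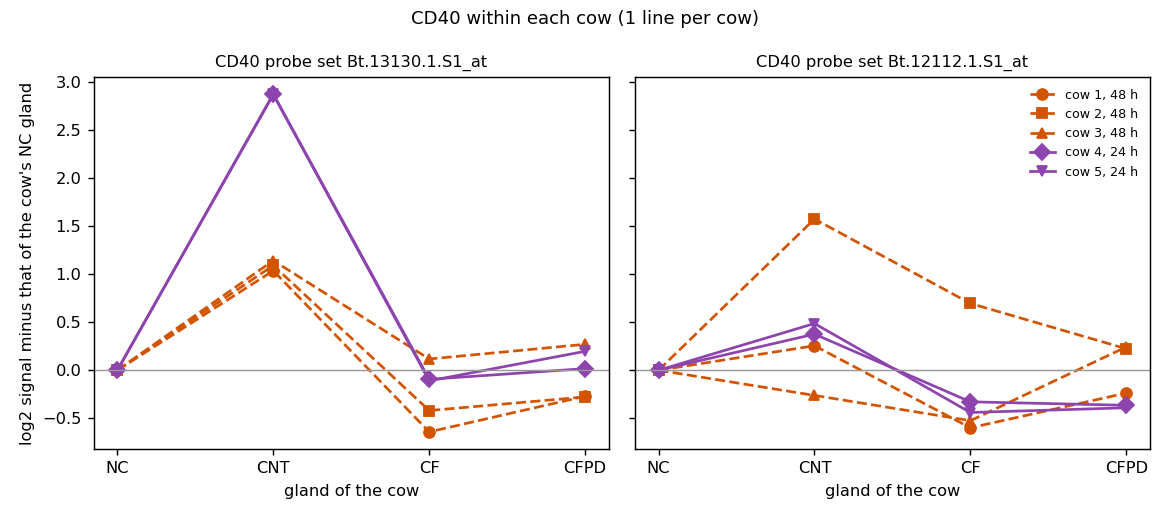
Log2 signal of each gland minus that of the NC gland of the same cow (vertical axis), for the 4 glands of a cow (horizontal axis), 1 line per cow, solid at 24 h and dashed at 48 h. For Bt.13130.1.S1_at the lines of cows 4 and 5 meet at 2.87 in the CNT gland and those of cows 1, 2 and 3 at 1.03 to 1.14; for Bt.12112.1.S1_at the CNT values run from -0.26 to 1.57.

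How far probe sets of 1 gene usually part was measured on the genes with at least 2 tested probe sets. At 24 h there were 1393 such genes, and the difference between their highest-signal probe sets in their log2 fold change between CNT and NC had a median of 0.19 and a 95th percentile of 0.76. For CD40 it was 2.44. CD40 was chosen for this disagreement, so its place among the genes is a description and no test. Of 51 genes with at least 1 probe set called, 9 had all of them called.

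At 48 h the difference between the CD40 probe sets was 0.57, against a median of 0.21 and a 95th percentile of 0.82 over 1369 genes. Of 43 genes with a called probe set, 11 had all called. Which transcripts or exons each CD40 probe set measures was not analysed here, and the levels of different probe sets are not compared.

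**Figure D3:**
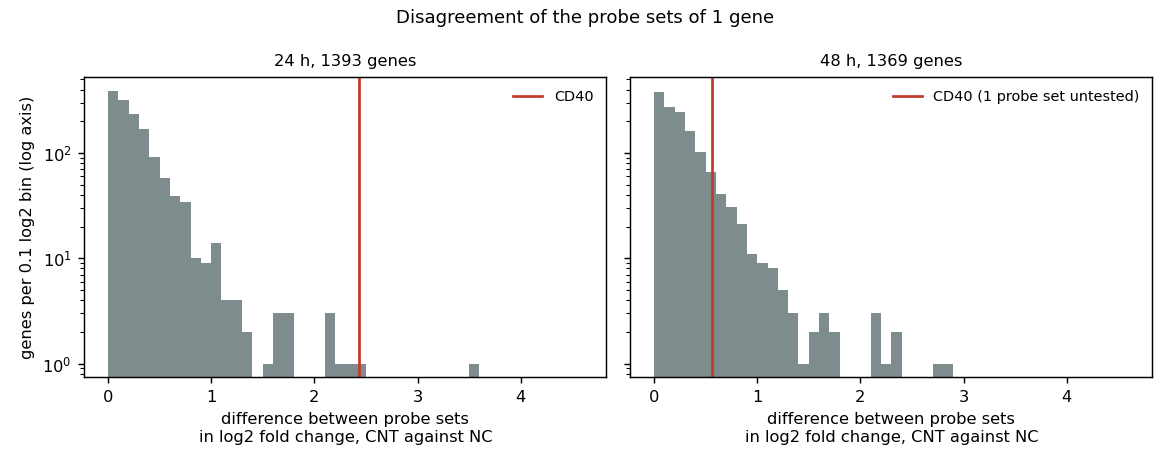
Number of genes (vertical log axis) by the difference between their probe sets in log2 fold change of CNT against NC (horizontal axis) at 24 h and 48 h; the red line is CD40. CD40, chosen for this disagreement, lies at 2.44 at 24 h and at 0.57 at 48 h, where the medians over genes are 0.19 and 0.21.

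Across the 20 glands the probe sets of CD40 had a Pearson correlation of 0.54, and across the 15 glands other than CNT one of 0.31. These glands share cows, so the values are descriptions without a test. Over the 8 glands at 24 h the correlation was 0.86, over the 12 at 48 h it was 0.52, and without cow 2 at 48 h it was 0.27.

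In treated glands Bt.13130.1.S1_at stood near the level of unchallenged glands. Against CNT glands its log2 fold change was -2.97 in CF and -2.76 in CFPD glands at 24 h, and -1.40 and -1.18 at 48 h. In each of the 5 cows both treated glands were lower than the CNT gland. Bt.12112.1.S1_at was lower as well in both treated glands at 24 h, by a log2 fold change of -0.81 in each. At 48 h its values were -0.66 in CF and -0.45 in CFPD glands, and in cow 3 the CFPD gland was higher than the CNT gland by 0.50. The CNT glands chose the gene, so these differences carry no test. Over all probe sets 0.546% were called higher and 1.59% lower in CF against CNT glands at 24 h, and 0.361% and 1.04% in CFPD against CNT glands. At 48 h the shares were 0.138% and 1.5% for CF, and 0.162% and 1.05% for CFPD.

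Treated glands are set beside unchallenged ones as a description, since the NC glands took part in choosing the gene. At 24 h the log2 fold change of Bt.13130.1.S1_at was -0.10 (95% interval -0.46 to 0.26) in CF and 0.11 (-0.25 to 0.47) in CFPD against NC glands. At 48 h it was -0.31 (-0.76 to 0.13) in CF and -0.09 (-0.54 to 0.35) in CFPD glands. The intervals reach to 0.76 below the NC level, and they rest on signals under the array median.

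Bt.12112.1.S1_at was lower in treated than in NC glands of both cows at 24 h. The log2 fold change was -0.38 in CF glands (95% interval -0.77 to 0.01) and -0.38 in CFPD glands (-0.77 to 0.01). At 48 h it was -0.14 (-1.16 to 0.87) and 0.08 (-0.94 to 1.09). In these comparisons 0% of all probe sets were called at 24 h and 0% at 48 h, for CF and for CFPD against NC glands alike, and nothing is read from this for CD40.

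Prednisolone on top of cefapirin is addressed by CFPD against CF glands, a difference that the choice of the gene did not use. For Bt.13130.1.S1_at it lies between signals under the array median. Bt.13130.1.S1_at was higher in the CFPD than in the CF gland in 5 of 5 cows, by a mean of 0.22 ± 0.11 (SD, n = 5) on the log2 scale. The two-sided exact sign-flip permutation test gave p = 0.0625, the smallest that 5 cows allow, and 0.375 after adjustment over 6 tests. These were CFPD against CF, CF against NC and CFPD against NC for each probe set. The tests against NC glands are not read, since those glands took part in choosing the gene. With the labels of cows 2 and 5 exchanged the mean was 0.04 and the adjusted p of the exact permutation test 0.90. By time point the log2 fold change was 0.21 (95% interval -0.15 to 0.57) at 24 h and 0.22 (-0.23 to 0.67) at 48 h. With the exchange the value at 24 h was -0.10.

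For Bt.12112.1.S1_at the CFPD gland was higher in 3 of 5 cows, with a mean difference of 0.13 ± 0.46 (SD, n = 5) and an exact permutation p of 0.625 (adjusted 0.75). Of all probe sets, 0% were called in CFPD against CF glands at either time point by limma.

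Ordered by mean, Bt.13130.1.S1_at ran from CNT through CFPD and NC to CF at 24 h and from CNT through NC and CFPD to CF at 48 h. Below CNT, the steps between neighbours were at most 0.22. Bt.12112.1.S1_at ran from CNT through NC and CFPD to CF at 24 h, where the NC glands lay above all treated glands and the ranges of CF and CFPD overlapped. At 48 h it ran from CNT through CFPD and NC to CF, with overlapping ranges.

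The surroundings of CD40 were read from 5 lists of its pathway, holding 92 genes, of which 61 are named on the array. At 24 h 41 of them were tested and 1 was called higher in CNT against NC glands and none lower. At 48 h 43 were tested and 3 were called higher and none lower. Of all probe sets, 1.62% were called higher and 0.769% lower at 24 h, and 2.15% and 0.515% at 48 h. The pathway counts are a description. The median log2 fold change of the listed genes was 0.27 at 24 h and 0.39 at 48 h, beside 0.04 and 0.17 over all genes tested. 1 listed gene at each time point passed the filter through CNT glands alone, IL6 at 24 h and NGFR at 48 h. With the cow as a fixed block, 2 listed genes were called at 24 h and 5 at 48 h, and with it as a random block 3 and 5. The share of all probe sets called in these fits was not computed.

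Of the ligand and the proteins that bind the receptor, 8 of 11 on the array were tested at 24 h and 9 at 48 h, and 1 was called. CD40LG, the ligand, and TRAF5, an adaptor, were never above the array median in any gland. CD40LG had a mean level of 5.30 ± 0.33 (SD, n = 2) in NC and 5.38 ± 0.03 (SD, n = 2) in CNT glands at 24 h. TRAF1 had log2 fold changes of -0.08 and 0.24 at 24 h and 48 h, TRAF6 of -0.27 and 0.02, and TRAF3, tested only at 48 h, of 0.09. None of these passed the test, and MAP3K14, the kinase of the noncanonical NF-kB branch, with 0.44 and 0.35, did not either.

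The gene that rose was BIRC3, a ubiquitin ligase that TRAF proteins bring to the receptor. Its log2 level at 48 h was 10.31, 10.60 and 9.48 in the NC glands of cows 1, 2 and 3 and 11.56, 10.96 and 12.03 in their CNT glands. Every CNT gland lay above every NC gland, and the log2 fold change was 1.39 with a standard error of 0.32 (adjusted p = 0.038 in limma). At 24 h it was 1.39 with a standard error of 0.50, which did not pass (adjusted p = 0.18). These values are from 1 probe set of BIRC3. The log2 fold changes of its highest-signal probe sets differed by 1.24 at 24 h and by 0.36 at 48 h. The call at 48 h was lost without the NC gland of any of the 3 cows, the CNT gland of cow 1 or 3, the CF gland of cow 1, the CFPD gland of cow 2 or any 1 cow, and with quantile normalization, with adjusted p-values of up to 0.18.

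Of the NF-kB subunits and regulators, 11 were tested at 24 h and 10 at 48 h and none was called. At 24 h 5 had an unadjusted p under 0.05 in limma, and at 48 h 5. The share of all probe sets under this limit was not computed, so nothing is read from these counts. NFKBIA, the inhibitor that NF-kB itself induces, had the largest values, 1.69 at 24 h and 1.02 at 48 h, with adjusted p-values of 0.24 and 0.085 in limma. With the cow as a fixed block NFKBIA passed at 48 h (adjusted p = 0.036).

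Genes known to be induced through CD40 in antigen-presenting cells were mostly out of reach. Of 18 on the array, 8 were tested at 24 h and 7 at 48 h. CD80 and CD83, which mark activated antigen-presenting cells, and IL12A, IL12B, IL10, CCL22 and LTA were not above the array median in any gland. BCL2A1, a protein of the BCL2 family that protects from cell death, rose. At 48 h its log2 level was 7.98, 8.63 and 7.13 in the NC glands of cows 1, 2 and 3 and 10.08, 9.41 and 10.60 in the CNT glands. The groups did not overlap, and the log2 fold change was 2.12 with a standard error of 0.42 (adjusted p = 0.022 in limma). At 24 h it was 2.74 with a standard error of 0.75 (adjusted p = 0.10), which passed with the cow as a fixed block (adjusted p = 0.037). The call at 48 h was lost without the CNT or NC gland of cow 1 or of cow 3, or without either cow, with adjusted p-values of up to 0.18.

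BCL2A1 was also lower in treated than in CNT glands at 48 h, by a log2 fold change of -2.19 in CF and -2.29 in CFPD glands (adjusted p = 0.023 for both in limma). BCL2A1 was named for its call in CNT against NC glands, which used the same CNT glands, so these p-values are not independent of that choice. ICAM1, an adhesion molecule that binds leukocyte integrins, was lower in CF glands at 48 h with -1.86 (adjusted p = 0.042 in limma). In CNT against NC glands ICAM1 had 2.14 at 24 h and 1.57 at 48 h and did not pass (adjusted p = 0.13 and 0.055), though it did at 48 h with the cow as a fixed block (adjusted p = 0.0096). ICAM1 was named after its values were seen.

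Among the other receptors of the TNF family, 8 were tested at 24 h and 9 at 48 h. TNFRSF6B, a soluble decoy receptor that binds ligands of the family, rose at 24 h. Its log2 level was 10.09 and 10.82 in the NC glands of cows 4 and 5 and 13.14 and 12.95 in the CNT glands. The log2 fold change was 2.59 with a standard error of 0.34 (adjusted p = 0.022 in limma). The call was lost without the CNT or NC gland of cow 4, the NC gland of cow 5 or either cow, with adjusted p-values of up to 0.47. TNFRSF6B was lower in CF than in CNT glands by -1.93 and in CFPD than in CNT glands by -2.35 (adjusted p = 0.039 and 0.031 in limma). The call that named it used the same CNT glands, so these p-values are not independent of that choice. At 48 h the log2 fold change of TNFRSF6B in CNT against NC glands was 0.92 (adjusted p = 0.17 in limma).

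Of the class II antigen presentation genes 6 were tested at 24 h and 8 at 48 h. CTSS, the protease that clears the invariant chain from class II molecules, rose at 48 h. Its log2 level was 11.41, 11.60 and 10.75 in the NC glands of cows 1, 2 and 3 and 12.43, 12.67 and 12.20 in the CNT glands. The log2 fold change was 1.18 with a standard error of 0.29 (adjusted p = 0.046 in limma). At 24 h its log2 fold change was 1.44, which did not pass (adjusted p = 0.11 in limma) but did with the cow as a random block (adjusted p = 0.046). At 48 h CTSS kept its call in 9 of 24 alternative fits. The call was lost without any 1 of the NC, CNT and CFPD glands, the CF gland of cow 1 or any 1 cow, and with arrays centred on the median (adjusted p = 0.062) or quantile normalized (0.063). The class II chain BOLA-DRA had 0.22 at 24 h and 0.50 at 48 h, and neither passed.

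**Figure D4:**
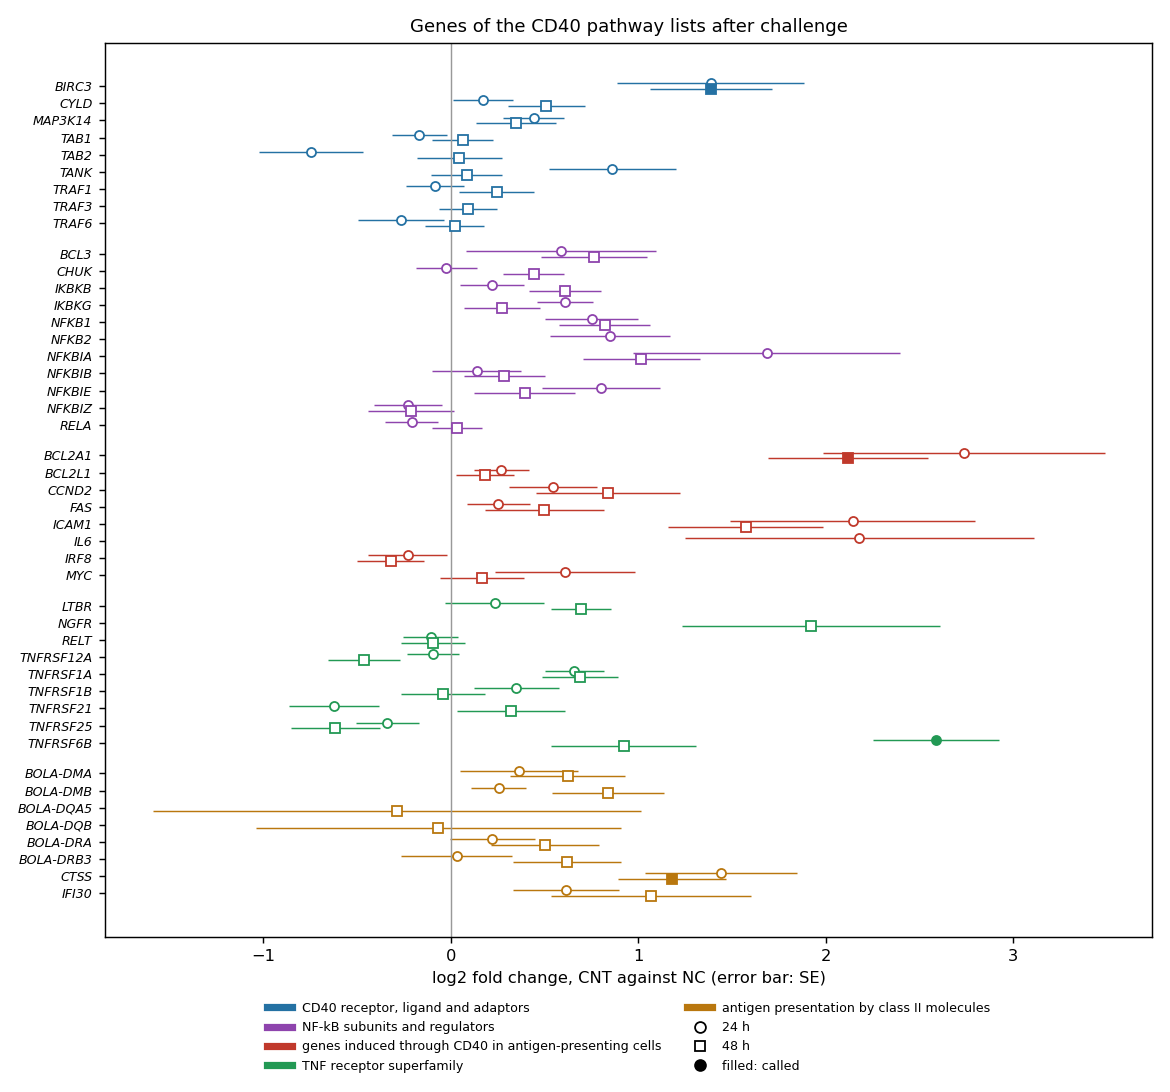
Log2 fold change between CNT and NC glands with its standard error (horizontal axis) for each tested gene of the 5 pathway lists (rows, coloured by list), circles at 24 h and squares at 48 h; filled symbols were called. 4 symbols are filled: TNFRSF6B at 24 h and BIRC3, BCL2A1 and CTSS at 48 h.

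In the CFPD gland of cow 5 at 24 h the genes named above parted. The log2 level of BCL2A1 was 10.66, beside 10.58 in the CNT gland and 7.99 in the NC gland of the cow. BIRC3 was 11.94 beside 11.57 and 9.96, and NFKBIA 13.01 beside 12.33 and 10.54. TNFRSF6B was 11.07 beside 12.95 and 10.82, CTSS 10.28 beside 11.33 and 10.48, and Bt.13130.1.S1_at 6.00 beside 8.67 and 5.81. The first genes thus stood at or above the level of the CNT gland, and the last near that of the NC gland. With the labels of cow 5 exchanged this would be the CF gland. The gland was picked after its values were seen.

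In whole tissue, more cells of a type and more RNA per cell cannot be told apart, so markers of the cells that could carry CD40 are given beside it. Of the 8 neutrophil markers on the array, 5 were tested. In CNT against NC glands 4 were called higher at 24 h and 5 at 48 h, beside 1.62% and 2.15% of all probe sets. CXCR1 and TREM1 passed the filter through CNT glands alone at both time points and so had to differ, which makes these counts a description. Their mean log2 level was 6.52 to 6.86 in NC and 8.80 to 10.36 in CNT glands at 24 h, and 6.28 to 7.12 against 8.73 to 9.68 at 48 h. CXCR1, a receptor for neutrophil chemokines, was 12.56 and 9.72 in the CNT glands of cows 4 and 5 and 10.59, 8.51 and 9.31 in those of cows 1, 2 and 3, and under the array median in every other gland. S100A12 had log2 fold changes of 4.96 at 24 h and 4.50 at 48 h and S100A8 4.73 and 4.24, both calcium-binding proteins of neutrophils. At 24 h none of these markers was called when the NC gland of either cow was left out, and 2 were without cow 4. At 48 h none was called without cow 1, 1 without cow 3 and 3 with a filter on the mean level. At 24 h the neutrophil mean was 6.86 in the NC and 10.36 in the CNT gland of cow 4, and 6.52 and 8.80 in those of cow 5.

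Of the monocyte and macrophage markers 0 of 9 tested were called at 24 h, where 5 had an unadjusted p under 0.05 in limma. At 48 h 3 of 10 were called higher, beside 2.15% of all probe sets. VSIG4, 1 of these 3, passed the filter through CNT glands alone and so had to differ, which makes this count a description. Nothing is read from the unadjusted count, since its share over all probe sets was not computed. With 1 array or cow left out, 0 to 3 were called at 24 h and 0 to 4 at 48 h, where none was called without cow 1 or without cow 2, 1 without cow 3, and 1 without the CNT gland of cow 2 or the NC gland of cow 3. At 24 h leaving out cow 5 gave 1 call, and leaving out its CNT gland alone gave 3. With the cow as a fixed block, 3 were called at 24 h and 7 at 48 h, and the share over all probe sets was not computed for this fit. Their mean level was 8.14 to 8.38 in NC and 8.72 to 9.39 in CNT glands at 24 h, and 8.28 to 9.02 against 9.51 to 9.99 at 48 h. CD68, a lysosomal protein of macrophages, had 3.42 at 24 h, which did not pass in limma (adjusted p = 0.071), and 2.86 at 48 h, which did (adjusted p = 0.011), but not without cow 1 (adjusted p = 0.10) or cow 2 (adjusted p = 0.085). VSIG4, a complement receptor of resident macrophages, passed the filter at 48 h through CNT glands alone, with 8.10, 8.69 and 7.76 in the CNT glands of cows 1, 2 and 3 and 6.95, 6.07 and 6.23 in their NC glands. Its call, a description for this reason, was kept in 16 of 23 alternative fits. It was lost without the CNT gland of cow 1 or 2, the NC gland of cow 2 or 3 or any 1 cow. CSF1R, the receptor for the macrophage growth factor and named after its values were seen, had 1.19 at 48 h (adjusted p = 0.025 in limma). At 48 h 9 of the 10 tested markers had a positive log2 fold change. The lowest value in the list was -1.51, larger in size than that of CSF1R, and no marker was called lower. CD14, the receptor for bacterial lipopolysaccharide, had 1.63 at 24 h and 0.10 at 48 h and did not pass.

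Most markers of B cells and dendritic cells on the array gave little signal. Of 7 B cell markers on the array, MS4A1, CD79A, CR2 and BLK were above the array median in no gland, and the list mean was 6.62 to 6.64 in NC and 6.42 to 6.63 in CNT glands at 24 h and 6.59 to 7.09 against 6.83 to 6.99 at 48 h. JCHAIN, a chain of secreted antibodies made by plasma cells, was above the array median in every gland, at 9.71 to 11.85. Its log2 fold change was -0.61 at 24 h and -0.28 at 48 h, and that of MZB1, another plasma cell gene, 0.17 at 48 h. Of 6 dendritic cell markers, LAMP3, CD83, CD1B, CD209 and CCL22 were above the array median in no gland. FSCN1, which bundles actin, was above it in every gland, at 7.36 to 8.30, and had log2 fold changes of 0.08 and 0.24. The dendritic list mean was 5.48 to 5.53 in NC and 5.43 to 5.50 in CNT glands at 24 h, and 5.68 to 5.92 against 5.82 to 6.01 at 48 h. None of the tested genes of these lists passed.

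Of the T cell markers none of 9 tested at 24 h and 10 at 48 h was called, CD4 having -0.38 and -0.58, CD247 0.37 and 0.27 and CD8B -0.09 and -0.32. Among endothelial markers none of 9 and 7 was called, and VWF, KDR and SELE were above the array median in no gland. SELP, which tethers leukocytes to vessel walls, had 0.93 and 0.39, TEK 0.32 at 24 h, PECAM1 -0.02 and 0.67 and CLDN5 0.08 and 0.49. Of 12 epithelial markers KRT19, a keratin, was lower at 24 h by -1.31 (adjusted p = 0.042 in limma), a call that was lost with all arrays in 1 fit (adjusted p = 0.11) and without any 1 NC, CNT or CF gland or cow of that time point. At 48 h it had -0.08. KRT7 had -0.64 and 0.29, EPCAM -0.0025 and 0.49 and CLDN4 -0.17 and 0.44, and none of these passed. How much of the CD40 difference any of these cell types accounts for was not tested.

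**Figure D5:**
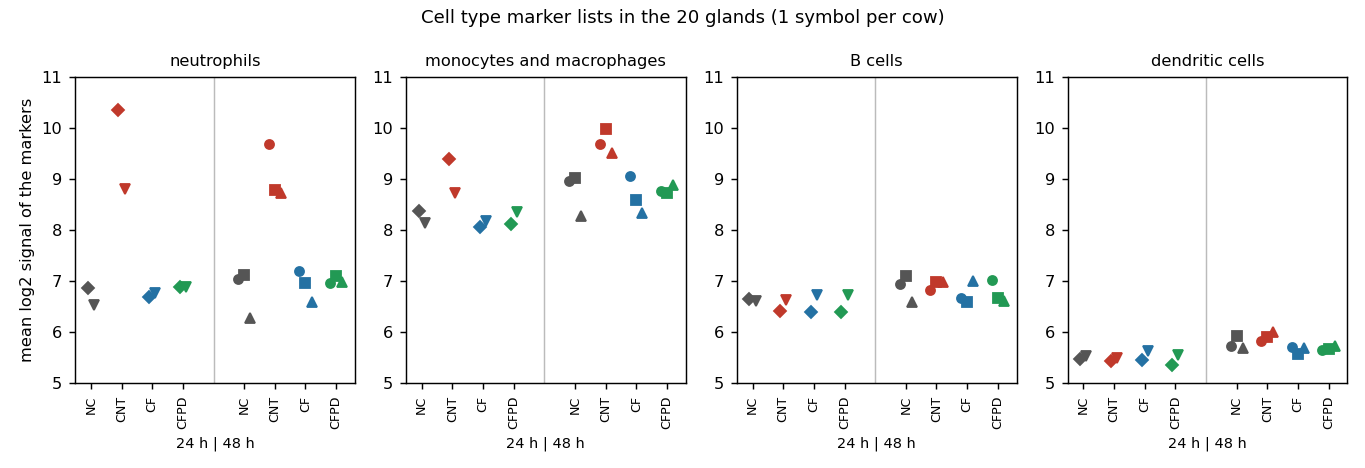
Mean log2 signal of the markers of 4 cell types (vertical axis) in each gland by group, 24 h left and 48 h right of the grey line; symbols stand for cows as in the plot of CD40 levels. Neutrophil markers reach 8.73 to 10.36 in CNT glands, above all other glands, and the means of B cell and dendritic cell markers overlap between NC and CNT glands at both time points.

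The genes whose pattern was most like that of each probe set were found among 8150 probe sets with 1 symbol by Pearson correlation over the 20 glands, which share cows and, for Bt.13130.1.S1_at, the contrast that chose it. For Bt.13130.1.S1_at these were the chemokine CCL4 (0.955), IL1RN, the antagonist of the interleukin 1 receptor (0.937), the chemokine CCL3 (0.936), NCF1, a subunit of the phagocyte oxidase (0.932), and S100A9, the partner of S100A8 (0.924). Over the 15 glands other than CNT the correlations were 0.762, 0.595, 0.676, 0.803 and 0.25. In rank they then stood 20th, 299th, 105th, 5th and 2276th, and by Spearman's rho over all 20 glands 58th, 43rd, 30th, 17th and 189th. The short list for this probe set thus depends on the CNT glands and on the measure.

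CCL4 also came closest in size. Its log2 fold change in CNT against NC glands was 2.88 at 24 h and 1.01 at 48 h, beside 2.87 and 1.09 for Bt.13130.1.S1_at. IL1RN had 4.03 and 3.15, CCL3 4.63 and 2.70 and NCF1 4.39 and 2.38. Each value is from 1 probe set. The log2 fold changes of the highest-signal probe sets of CCL3 differed by 3.56 at 24 h and by 2.78 at 48 h. Those of S100A9 differed by 2.36 at 24 h. CCL4 at 48 h did not pass (adjusted p = 0.088 in limma). All 5 were larger at 24 h than at 48 h. They were chosen by correlation over glands that include these CNT glands, so the choice favoured this order and nothing is read from it.

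For Bt.12112.1.S1_at the most alike were SQOR, a mitochondrial enzyme that oxidizes sulfide (0.909), RASGEF1A, an exchange factor for Ras proteins (0.907), CD99, a surface glycoprotein (0.903), TPM4, a tropomyosin (0.887), and MBOAT1, an acyltransferase of phospholipids (0.886). Over the 15 glands other than CNT these were 0.846, 0.828, 0.826, 0.896 and 0.911, and by Spearman's rho over all glands their ranks were 7, 25, 37, 5 and 1. No gene stood on both short lists. Each list holds only 5 genes from 8150 probe sets, so nothing is read from this. SQOR had 0.58 at 24 h and 0.48 at 48 h in CNT against NC glands, and MBOAT1 1.06 and 0.55.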

How the data were processed

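RNA of 20 mammary glands was hybridized to the Affymetrix Bovine Genome Array. The authors made the deposited log2 signals by RMA in the affy package, whose version is not given in the sources used here. Whether both time points were normalized together is not given either. Symbols came from the platform annotation, with 1 symbol for 13318 probe sets, several for 86 and none for 10724, updated by gene identifier. 112 controls were left out.

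Members, lists and tests were chosen with earlier results of these data known. Each time point was fitted on its probe sets above the array median in 2 or more arrays for 24 h (13004 probe sets) and in 3 or more for 48 h (13000) with limma 3.58.1 in R 4.3.3, 4 groups together, with no term for the cow. P-values were adjusted by Benjamini and Hochberg over all probe sets tested, and a call took an adjusted p below 0.05 together with a change of 1 or more on the log2 scale. Bt.13130.1.S1_at did not pass the filter at 48 h and was read there from a fit without it. A listed gene is given by its probe set with the highest mean. The genes named were both CD40 probe sets, listed pathway genes that were called, the largest change in a pathway list without a call, the 2 largest changes per marker list and time point, and the 5 genes most correlated with each CD40 probe set.

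The replicate number marks the cow, so glands pair across groups. Deviations of glands of 1 cow from their group means had a mean correlation of 0.52 at 24 h and 0.45 at 48 h, at lowest 0.33 and 0.06. Glands are 2 or 3 per group, which limits precision. Fits were tested on simulated data with independent noise in each gland, which leaves out the correlation within cows. Of 80, 80 and 40 simulated log2 changes of 1, 2 and 3, 33.8%, 81.2% and 100% were called among 13004 probe sets at 24 h. At 48 h 33.8%, 88.8% and 100% were called among 13000. False calls numbered 7 at 24 h and 4 at 48 h. A change of 1 lies at the limit of a call. Alternatives were the cow as fixed or random block, 1 fit of all arrays, other filters, centring, quantile normalization, a trended prior, left-out arrays and cows, other call rules and, chosen after the data were seen, exchanged labels of cows 2 and 5 and correlations without cow 2.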

Additional observations from a re-analysis of the deposited data

How the results depend on the processing

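The log2 fold change of Bt.13130.1.S1_at in CNT against NC glands kept its direction in every alternative run, between 2.79 and 2.95 at 24 h and between 0.88 and 1.27 at 48 h. This contrast on the same arrays chose the gene, so these ranges are a description. The median log2 fold change between CNT and NC over all probe sets tested at 48 h was 0.13, and moved to 0.064 with arrays centred on the median and to -0.036 with quantile normalization. With the mean above the median as filter Bt.13130.1.S1_at gave no value. Exchanging the labels of cows 2 and 5 moved its 24 h values to -2.82 (CF against CNT), -2.91 (CFPD against CNT), 0.051 (CF against NC), -0.047 (CFPD against NC) and -0.10 (CFPD against CF), and Bt.12112.1.S1_at to -0.042 in CFPD against CF, which was -0.011 with quantile normalization. The exchange of cows 1 and 4 was not run, because that pair was taken from another numbering of the animals.

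Leaving out 1 array or cow gave ranges for Bt.12112.1.S1_at at 48 h of -0.0037 to 0.91 (CNT against NC), -0.92 to 0.080 (CFPD against CNT), -0.56 to 0.20 (CF against NC), -0.12 to 0.35 (CFPD against NC) and -0.12 to 0.64 (CFPD against CF), and at 24 h of -0.13 to 0.14 (CFPD against CF). For Bt.13130.1.S1_at, CFPD against NC at 48 h ran from -0.30 to 0.037. CFPD against CF was called in no alternative for either probe set. Of the correlations of the most alike genes under Spearman's rho, without CNT glands or without cow 2, 9 moved and 21 did not, a move being a change of over 0.1.

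Called pathway genes in CNT against NC numbered 0 to 3 at 24 h and 0 to 4 at 48 h with 1 array or cow left out. With all arrays in 1 fit 2 were called at 24 h. With the cow as a fixed replicate block 2 were called at 24 h and 5 at 48 h, with it as a random block 3 and 5, and with quantile normalization 1 at 48 h; no CD40 call changed with the block. When 1 cow was left out at 24 h, the lone array of a group was assumed to vary like the others.

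Values near 0 that turned with 1 array or cow left out were CD14 at 48 h (-0.20 to 0.43, and -0.089 with quantile normalization), CD247 at 48 h (-0.22 to 0.56), CD8B at 24 h (-0.31 to 0.14), CLDN4 at 24 h (-0.45 to 0.11), CLDN5 at 24 h (-0.25 to 0.40), EPCAM at 24 h (-0.22 to 0.21), KRT19 at 48 h (-0.42 to 0.25), KRT7 at 48 h (-0.11 to 0.85), MZB1 at 48 h (-0.11 to 0.34), PECAM1 at 24 h (-0.31 to 0.26) and TEK at 24 h (-0.30 to 0.95). The cause was not tested.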
